A study of Homo sapiens with 6 samples.

Results

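RNA of 10 genes for granins and granule neuropeptides was followed in EndoC-βH1, an established human line of insulin-secreting beta cells. The genes were CHGA, CHGB, SCG2, SCG3, SCG5, VGF, PCSK1N, NPY, UCN3 and ADCYAP1, chosen by name from the 26485 gene symbols of the count table. All 10 were in the table and all 10 passed the filter on low counts, as did 16199 genes in all. Bulk RNA sequencing covered 6 libraries, 3 labelled sgZHX3-3 and 3 labelled Empty. In both groups the cells had received lentiCRISPRv2, a lentiviral plasmid that delivers the Cas9 nuclease, and the stable lines were selected with antibiotics. The sgZHX3-3 cells carried 1 guide RNA, which targets ZHX3 in its first coding exon, and have the genotype label ZHX3 KO, while the Empty cells carried the vector with no guide and are labelled WT. ZHX3 encodes a transcriptional repressor with zinc fingers and homeodomains. The titles call the 3 libraries of a group biological replicates but do not say whether they were separately made lines, so the SDs and p-values may measure spread between cultures of 1 line only.

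Granins are acidic, soluble proteins of the regulated secretory pathway. They aggregate in the trans-Golgi network, help to form dense-core granules, and are cut at paired basic residues into peptides that are released with the hormone. In beta cells the granules hold insulin together with granins, their peptides and smaller neuropeptides that act on islet cells or nerves. A gene's RNA level says nothing by itself of granule number or of peptide release, which were not analysed here.

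Total counts were 45101454 to 61051884 per library. ZHX3 RNA was higher in the libraries labelled sgZHX3-3, at 167, 180 and 183 CPM, against 106, 110 and 101 CPM in the libraries labelled Empty (log2 fold change 0.75, edgeR adjusted p = 1.62e-05). CPM are read counts scaled to library size, here after TMM normalisation. Loss of the transcript, as the knockout label might be read, was not what the counts showed. An edit by Cas9 need not lower an RNA, and the protein was not analysed here. Group names below are those of the labels, and every direction given rests on them. One library of each group stood apart over all genes. The chi-square statistic per gene between the counts of 2 libraries, about 1 where they differ by sampling noise alone, was 17.6 and 10.7 between sgZHX3-3 3 and sgZHX3-3 1 and 2, against 3.98 between those. It was 19.1 and 18.4 between Empty 1 and Empty 2 and 3, against 3.22 between those. Of the beta cell markers all 10 were detected, at a summed 10182 to 11649 CPM in sgZHX3-3 and 8353 to 10237 CPM in Empty libraries. INS, IAPP, SLC30A8 and PCSK1, named again in what follows, are among them. Of the 10, 7 were called higher in sgZHX3-3, a count that was 3 without Empty 2 or Empty 3, 4 without sgZHX3-3 1, without sgZHX3-3 2 or with no filter on low counts, 9 without Empty 1 and 1 without Empty 2 and 3 together; 7.11% of all tested genes were called higher. Markers of stroma and immune cells summed to at most 27.1 CPM in sgZHX3-3 and 23.6 CPM in Empty libraries. Acinar markers summed to 44.2 to 47.5 CPM in sgZHX3-3 and 34.5 to 41.4 CPM in Empty libraries, nearly all of it CPA1. CPA1 was the 1 of 3 tested acinar markers called higher (log2 fold change 0.31, edgeR adjusted p = 0.0145). Its call was lost without sgZHX3-3 2, Empty 2 or Empty 3 and with the replicate number as a block. Markers of enterochromaffin and chromaffin cells, which also make granins, summed to 105 to 109 CPM in sgZHX3-3 and 87.6 to 103 CPM in Empty libraries. DDC made up most of that, at a mean of 91.4 CPM in sgZHX3-3 and 81.9 CPM in Empty libraries. SLC18A1 was at 0 throughout. Of the 5 tested genes TH was called higher (log2 fold change 0.57, edgeR adjusted p = 0.0458). That call was lost with library totals and with the replicate number as a block. The 8 tested alpha cell markers summed to 2068 to 2253 CPM in sgZHX3-3 and 1902 to 2311 CPM in Empty libraries. Most abundant were TTR, at a mean of 1246 and 1147 CPM, and GC, at 801 and 796 CPM. Of the 8, 1 was called higher and 2 lower in sgZHX3-3, beside 7.11% and 4.98% of all tested genes. GCG, which defines alpha cells, was at 0.377 ± 0.0273 CPM in sgZHX3-3 and 0.190 ± 0.0669 CPM in Empty libraries (SD, n = 3 each). Counted 8 to 21 times per library, it was not among the called genes (log2 fold change 0.99, edgeR adjusted p = 0.0964). SST, which defines delta cells, was at 7.51 ± 1.18 CPM in sgZHX3-3 and 7.63 ± 2.08 CPM in Empty libraries (SD, n = 3 each). RBP4, from the same list of delta, PP and epsilon cell markers, was at 7.43, 7.90 and 8.73 CPM in sgZHX3-3 libraries, against 5.86, 4.92 and 5.19 CPM in Empty libraries, and was the 1 of its 5 tested genes called higher (log2 fold change 0.60, edgeR adjusted p = 0.00443).

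Of the 10 genes, SCG2 rose in sgZHX3-3 libraries and none fell (edgeR quasi-likelihood test, Benjamini-Hochberg adjusted over all tested genes). The background is that 7.11% of all tested genes were called higher and 4.98% lower. With scaling by library totals in place of TMM these shares were 5.58% and 7.85%. The other 9 genes did not pass. Of the fold changes 9 were above 0 and 1, that of SCG5, was below 0, where 49.5% of all tested genes were above 0. The median log2 fold change of the 10 was 0.19, beside −0.0020 over all tested genes. With single libraries left out the median of the 10 ran from 0.14, without sgZHX3-3 3, to 0.27, without Empty 1. Without Empty 2 and 3 together it was 0.068. An unadjusted p below 0.05 was reached by 7 of the 10, all in the upward direction, beside 14.5% of all tested genes in that direction and 13.6% in the other. In bulk RNA a change in the share of cells that make a transcript and a change in the amount per cell cannot be told apart. For SCG2, the gene that passed, the fold was 1.16.

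**Figure D1:**
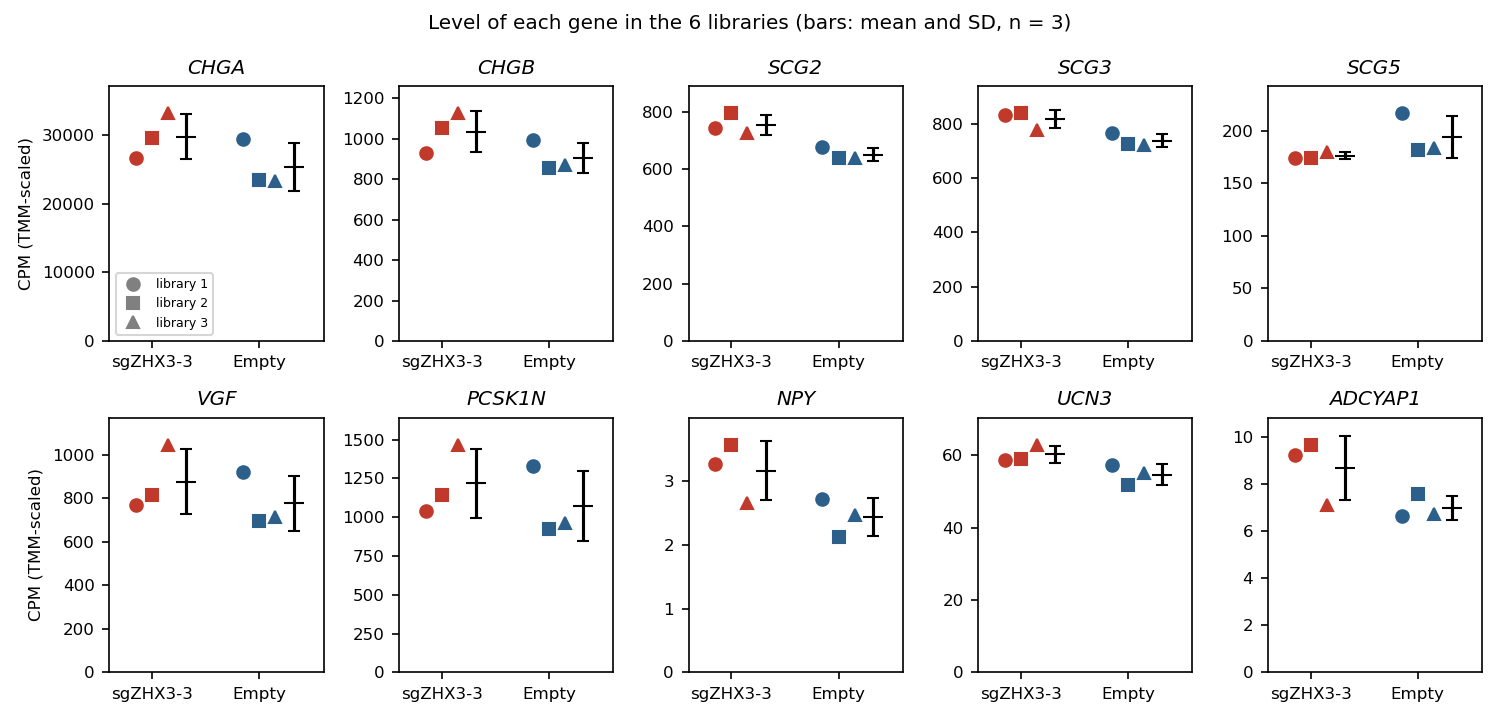
Level of each gene in CPM (TMM-scaled, axes from 0) in the 3 sgZHX3-3 libraries (red, left) and the 3 Empty libraries (blue, right), with the mean and SD of each group beside them. The groups do not overlap for SCG2, SCG3, UCN3 and SCG5, and SCG5 alone of these 4 is lower in sgZHX3-3; Empty 1 and sgZHX3-3 3 are the 2 highest libraries for VGF and PCSK1N.

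Levels differed widely between the genes. Per kb of exon length, which allows a rough comparison of genes, CHGA stood at 8899 ± 1254 CPM per kb (SD over the 6 libraries) and PCSK1N followed at 840 ± 159 CPM per kb. The length is that of all annotated exons of a gene together, 4535 bases for CHGB, and need not be that of the transcript made. The order of genes close in level therefore depends on the length taken. VGF at 306, SCG2 at 258, SCG3 at 235 and CHGB at 214 CPM per kb lay close together, and the ranges of neighbours in that order overlapped. Within single libraries VGF exceeded SCG2 in 6 of 6, SCG2 exceeded SCG3 in 6 of 6, and SCG3 exceeded CHGB in 5 of 6. SCG5 followed at 84.2 and UCN3 at 47.9 CPM per kb. NPY at 3.04 and ADCYAP1 at 2.06 CPM per kb were the lowest of the 10, with overlapping ranges and with NPY above ADCYAP1 in 6 of 6 libraries.

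The chromogranins CHGA and CHGB are the classic granule matrix proteins, used as general markers of neuroendocrine cells. CHGA (ENSG00000100604.12, GRCh38 chromosome 14, 92923080 to 92935293, plus strand) was measured at 26620, 29619 and 33205 CPM in sgZHX3-3 libraries 1, 2 and 3. In Empty libraries 1, 2 and 3 it was at 29447, 23467 and 23272 CPM. The groups overlapped, because Empty 1 was nearly as high as the middle sgZHX3-3 library. Its log2 fold change was 0.23 with a standard error of 0.1004 and a 95% interval of the fold of 1.01 to 1.37 (edgeR adjusted p = 0.152). CHGA alone took 2.64%, 2.91% and 3.28% of all counts in sgZHX3-3 libraries, against 2.95%, 2.39% and 2.37% in Empty libraries. Together the 10 genes took 3.43 ± 0.361% of counts in sgZHX3-3 and 3.01 ± 0.380% in Empty libraries (SD, n = 3 each), and 84.8% to 86.02% of that was CHGA. The groups overlapped in this share, with Empty 1 at 3.45% above sgZHX3-3 1 at 3.09% and sgZHX3-3 2 at 3.40%. The two-sided exact permutation p over the 6 libraries was 0.3. Counting error alone gives these shares of single libraries a Wilson 95% interval of at most ±0.00524 percentage points, and reads copied by PCR are not independent molecules.

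CHGB (ENSG00000089199.9, chromosome 20, 5911430 to 5925361, plus strand) was at 929, 1054 and 1127 CPM in sgZHX3-3 libraries, against 993, 854 and 872 CPM in Empty libraries. Here too Empty 1 lay within the sgZHX3-3 range. For CHGB the log2 fold change was 0.19 (standard error 0.0755, edgeR adjusted p = 0.115). Without Empty 1, CHGA was at 0.35 (adjusted p = 0.0102) and CHGB at 0.27 (adjusted p = 0.0185). Without Empty 2 and 3, in contrast, the fold changes were 0.02 and 0.06, with adjusted p of 0.959 and 0.822. CHGB passed without sgZHX3-3 1 as well (0.27, adjusted p = 0.0413). Within a library CHGB kept close to CHGA: there were 34.8 ± 0.825 CHGB counts per 1000 CHGA counts in sgZHX3-3 and 35.9 ± 1.94 in Empty libraries (SD, n = 3 each).

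**Figure D2:**
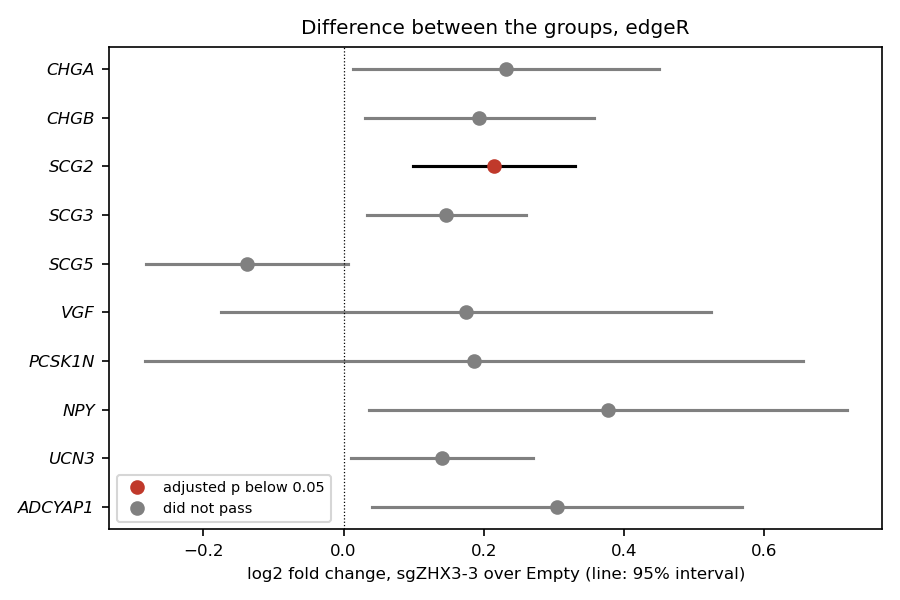
log2 fold change of sgZHX3-3 over Empty for each gene, with its 95% interval from edgeR; the dotted line marks no change. SCG2 is the gene past an adjusted p of 0.05, and the intervals of PCSK1N, VGF and NPY are the widest.

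For the secretogranins SCG2 and SCG3 the groups did not overlap. SCG2 is the precursor of the neuropeptide secretoneurin, and SCG3 binds CHGA and cholesterol-rich granule membrane. SCG2 (ENSG00000171951.4, chromosome 2, 223596940 to 223602503, minus strand) was at 742, 794 and 727 CPM in sgZHX3-3 libraries, against 675, 637 and 638 CPM in Empty libraries. The lowest sgZHX3-3 library was above the highest Empty library. Its log2 fold change was 0.21 with a standard error of 0.0533, and the fold had a 95% interval of 1.07 to 1.26 (edgeR adjusted p = 0.0214). The call was lost without sgZHX3-3 2 (adjusted p = 0.142), Empty 2 (0.0981) or Empty 3 (0.103), with the replicate number as a block (0.0766), and without Empty 2 and 3 together (0.16, adjusted p = 0.350).

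SCG3 (ENSG00000104112.8, chromosome 15, 51681353 to 51721031, plus strand) was at 834, 839 and 779 CPM in sgZHX3-3 libraries, against 765, 727 and 723 CPM in Empty libraries. Here the groups were apart by a margin between the nearest libraries that was smaller than the SD of either group. SCG3 had a log2 fold change of 0.15 (standard error 0.0522, edgeR adjusted p = 0.0866). The threshold was passed without Empty 1 (0.18, adjusted p = 0.0247) and without sgZHX3-3 3 (0.18, adjusted p = 0.0467). Of all tested genes 16% had groups that did not overlap with sgZHX3-3 higher, and of the 10 genes these were SCG2, SCG3 and UCN3.

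SCG5 and PCSK1N encode small partners of the prohormone convertases: SCG5 is a chaperone of PCSK2, and the PCSK1N product inhibits PCSK1. SCG5 (ENSG00000166922.8, chromosome 15, 32641676 to 32697098, plus strand) was at 175, 174 and 180 CPM in sgZHX3-3 libraries, against 217, 181 and 184 CPM in Empty libraries. Each sgZHX3-3 library was below each Empty library, but sgZHX3-3 3 and Empty 2 differed by little, and Empty 1 stood well above the rest. The difference of −0.14 log2 units had a standard error of 0.0667 (edgeR adjusted p = 0.197), and without Empty 1 it was −0.05 (adjusted p = 0.510). Groups that did not overlap with sgZHX3-3 lower were seen for 16% of all tested genes. An antisense gene overlaps 0.501% of the SCG5 exon bases, and whether counting used strand was not given in the sources used here.

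PCSK1N (ENSG00000102109.8, chromosome X, 48831094 to 48835633, minus strand) was at 1043, 1146 and 1467 CPM in sgZHX3-3 libraries, against 1333, 921 and 960 CPM in Empty libraries. The 2 highest values came from different groups, sgZHX3-3 3 and Empty 1. The log2 fold change of 0.19 had a standard error of 0.190, and the 95% interval of the fold ran from 0.821 to 1.57 (edgeR adjusted p = 0.588). VGF, a precursor of several secreted peptides that is induced by neurotrophins in neurons, followed the same order of libraries. VGF (ENSG00000128564.6, chromosome 7, 101162509 to 101165593, minus strand) was at 770, 814 and 1047 CPM in sgZHX3-3 libraries, against 921, 696 and 715 CPM in Empty libraries. VGF differed by 0.17 log2 units (standard error 0.148, edgeR adjusted p = 0.497). Without sgZHX3-3 3 both genes were at 0.03, and without Empty 2 and 3 both had the other sign, PCSK1N at −0.13 and VGF at −0.068. Intervals this wide leave room for a change of the size seen in SCG2.

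The promoters of CHGA and VGF are shown because they hold the full cyclic AMP response element TGACGTCA. PCSK1N, whose 6 libraries ranked in the same order as those of VGF, had no TGACGTCA and no TGACG in its window. The promoter of SCG5, the gene with a fold change below 0, is shown for comparison. RefSeq windows (GRCh38.p14) were found for 7 of the 10 genes, with 2 starts for ADCYAP1, and not for CHGB, SCG2 and UCN3. Each run below is the 250 bases before the annotated start, 5′ to 3′ on the gene's strand, and capitals mark TGACGTCA or TGACG on either strand. The GENCODE records of these 3 genes begin further upstream, within the window, so part of each run is transcribed by that annotation. The capitals of CHGA and SCG5 lie in that part, and those of VGF lie upstream of it.
CHGA, chr14:92922900-92923149, plus strand: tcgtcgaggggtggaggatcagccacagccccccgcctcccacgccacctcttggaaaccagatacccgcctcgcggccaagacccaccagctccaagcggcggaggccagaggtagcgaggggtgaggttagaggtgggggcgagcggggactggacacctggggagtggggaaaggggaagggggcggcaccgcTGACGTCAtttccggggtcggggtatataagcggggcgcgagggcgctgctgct
VGF, chr7:101165570-101165819, minus strand: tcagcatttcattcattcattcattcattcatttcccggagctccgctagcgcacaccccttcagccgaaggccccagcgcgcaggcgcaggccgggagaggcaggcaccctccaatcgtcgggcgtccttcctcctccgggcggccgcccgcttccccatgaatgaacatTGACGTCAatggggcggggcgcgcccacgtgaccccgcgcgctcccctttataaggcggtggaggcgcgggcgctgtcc
SCG5, chr15:32641460-32641709, plus strand: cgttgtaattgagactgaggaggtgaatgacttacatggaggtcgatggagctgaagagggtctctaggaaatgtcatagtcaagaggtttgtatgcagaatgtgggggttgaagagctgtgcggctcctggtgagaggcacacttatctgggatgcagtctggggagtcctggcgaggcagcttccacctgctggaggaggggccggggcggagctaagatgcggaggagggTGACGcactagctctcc
TGACGTCA began 54 bases before the RefSeq start of CHGA and 79 bases before that of VGF. It was absent from the windows of the other 5 matched genes. It was present in 1.65% of all 35116 windows of the same length. The shorter TGACG, which lies within TGACGTCA, was also found in SCG5, 17 bases before its start, and in 1 of the ADCYAP1 windows. It occurs in 21.2% of all windows. The E-box CANNTG was in CHGA, SCG3, SCG5, VGF, PCSK1N and 1 ADCYAP1 window, and in 61.8% of all windows. TATAAA was in VGF, and in 10.7% of all windows. A match is a string of letters, not a measured binding site.

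The neuropeptides were at low to moderate levels. NPY, which inhibits insulin secretion in islets, was counted 146, 178 and 160 times in sgZHX3-3 libraries, against 127, 126 and 121 times in Empty libraries. By level NPY (ENSG00000122585.7, chromosome 7, 24284163 to 24291865, plus strand) stood at 3.27, 3.57 and 2.66 CPM in sgZHX3-3 and 2.71, 2.13 and 2.46 CPM in Empty libraries. The groups overlapped by sgZHX3-3 3 and Empty 1. For NPY the log2 fold change of 0.38 (standard error 0.158) was the largest of the 10, and the edgeR adjusted p was 0.137.

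UCN3 marks mature beta cells in mouse and acts on delta cells through the receptor CRHR2. UCN3 (ENSG00000178473.6, chromosome 10, 5365009 to 5374692, plus strand) was at 58.8, 59.0 and 62.9 CPM in sgZHX3-3 libraries, against 57.4, 51.7 and 54.9 CPM in Empty libraries. The groups did not overlap, with sgZHX3-3 1 only just above Empty 1. UCN3 differed by 0.14 log2 units (standard error 0.0599, edgeR adjusted p = 0.145). ADCYAP1 encodes the peptide PACAP, which raises cyclic AMP and strengthens glucose-stimulated insulin release. ADCYAP1 (ENSG00000141433.12, chromosome 18, 904943 to 912172, plus strand) was at 9.24, 9.66 and 7.12 CPM in sgZHX3-3 libraries, against 6.65, 7.59 and 6.74 CPM in Empty libraries. Its sgZHX3-3 3 value lay within the Empty range. Its difference was 0.30 log2 units (standard error 0.122, edgeR adjusted p = 0.123), and ADCYAP1 was called without sgZHX3-3 3 (0.43, adjusted p = 0.0309). Noncoding genes on the other strand share 15.7% of the ADCYAP1 exon bases, so its count is uncertain there.

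Receptors of these peptides were at low levels or at 0 in the libraries. Of 11 receptor genes 3 passed the filter on low counts. VIPR2, a receptor for PACAP and VIP, rose to 1.86, 1.62 and 1.54 CPM in sgZHX3-3 libraries, against 0.941, 0.862 and 0.937 CPM in Empty libraries (log2 fold change 0.87, edgeR adjusted p = 0.0102). All 3 sgZHX3-3 values were above all Empty values, as for 16% of all tested genes, and 7.11% of all tested genes were called higher. VIPR2 was counted 44 to 93 times per library, and its call was lost without Empty 2 and at an adjusted p below 0.01. VIPR1, a second receptor of that kind, was at 0.49 (adjusted p = 0.0851). CRHR2 was counted 10, 16 and 11 times in sgZHX3-3 and 6, 17 and 4 times in Empty libraries (0.47, adjusted p = 0.570). NPY2R, NPY5R and the PACAP-selective receptor gene ADCYAP1R1 had 0 counts in each library, which allows up to 0.0498 to 0.0671 CPM, taking 3 counts as the limit per library.

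The ratio of a gene to CHGA within 1 library needs no scaling factor. It shows unequal change of 2 genes, not which of them changed. By log2 fold change CHGA was at 0.23 and SCG5 at −0.14, and neither passed. SCG5 had 6.56, 5.88 and 5.42 counts per 1000 CHGA counts in sgZHX3-3 libraries, against 7.36, 7.73 and 7.89 in Empty libraries. Its groups did not overlap, and the mean log2 ratio was lower in sgZHX3-3 by 0.37, at −7.40 ± 0.138 in sgZHX3-3 and −7.03 ± 0.0518 in Empty libraries (SD, n = 3 each). The two-sided exact permutation p was 0.1, the smallest that 3 against 3 can give. For 16.4% of all tested genes the ratio to CHGA was likewise lower with no overlap, and for 2.42% it was higher. The ratio of SCG5 to INS was lower without overlap as well, by a mean of 0.32, as it was for 12.6% of all tested genes. The groups overlapped in the ratio to CHGA for the other 8 genes, and the exact permutation p ran from 0.5 to 0.8. The 9 ratios were not adjusted, since none could pass. CHGA and INS, the 2 most abundant RNAs by CPM, kept a ratio that varied little: log2(CHGA/INS) was 2.21, 2.21 and 2.22 in sgZHX3-3 and 2.18, 2.16 and 2.16 in Empty libraries, a mean difference of 0.0466 (exact permutation p = 0.1). The groups did not overlap, as for the 3.36% of all tested genes whose ratio to INS was higher in that way. INS shares sequence with the readthrough gene INS-IGF2, so its count is uncertain.

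**Figure D3:**
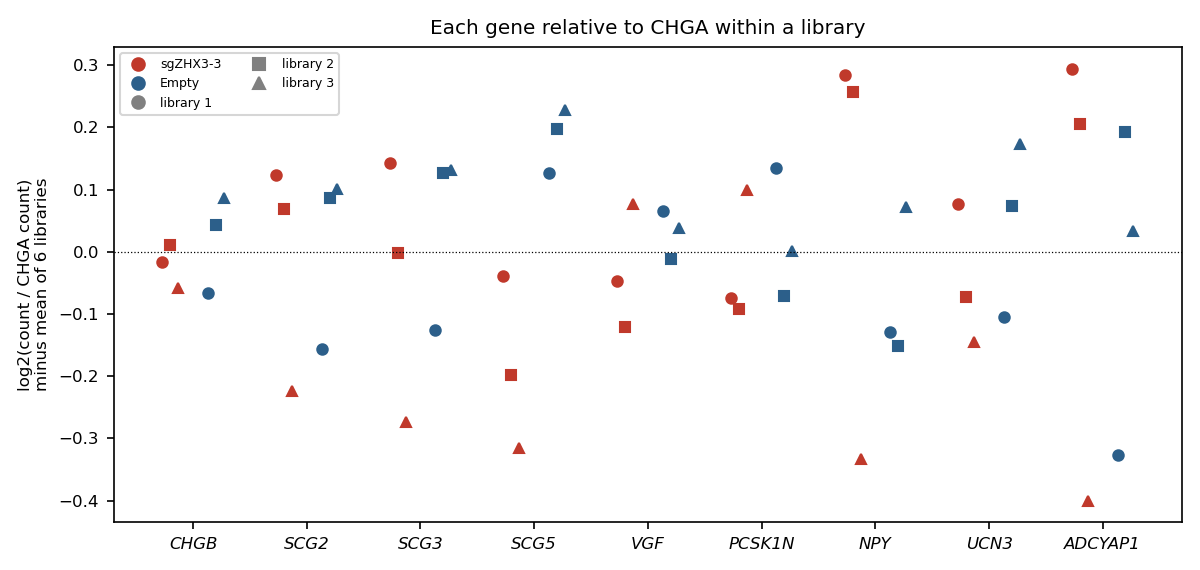
log2 of each gene's count over the CHGA count in the same library, minus its mean over the 6 libraries, for sgZHX3-3 (red, left of each pair) and Empty (blue, right), with the library number by marker shape. SCG5 is the gene whose groups separate, with all 3 sgZHX3-3 libraries below all 3 Empty libraries.

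GC content moved with the differences between libraries. Over 15082 tested genes with a transcript sequence, those of 65% GC or more had a median deviation from their mean over the 6 libraries of −0.04, 0.03 and 0.21 log2 units in sgZHX3-3 1, 2 and 3. In Empty 1, 2 and 3 the same genes were at 0.06, −0.14 and −0.10. For genes under 40% GC the medians were 0.02, −0.03 and −0.14 in sgZHX3-3 and 0.01, 0.08 and 0.05 in Empty libraries. The longest transcripts of PCSK1N, VGF and CHGA had 74.5%, 70.6% and 62.4% GC. PCSK1N deviated by 0.38 in sgZHX3-3 3 and by 0.24 in Empty 1, and VGF by 0.36 and 0.17. SCG2, SCG3 and ADCYAP1 had 43.0%, 41.9% and 43.4% GC. With an offset per library for the trends with GC content and transcript length, PCSK1N was at 0.02 and VGF at 0.05 log2 units. SCG2 was then at 0.30 (edgeR adjusted p = 0.00172), SCG3 at 0.22 (0.00667) and ADCYAP1 at 0.36 (0.0440), so that 3 of the 10 were called higher, beside 7.95% of all tested genes in that fit. CHGA was at 0.18 (adjusted p = 0.109) and CHGB at 0.20 (0.0723). This offset was chosen after seeing the data.

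**Figure D4:**
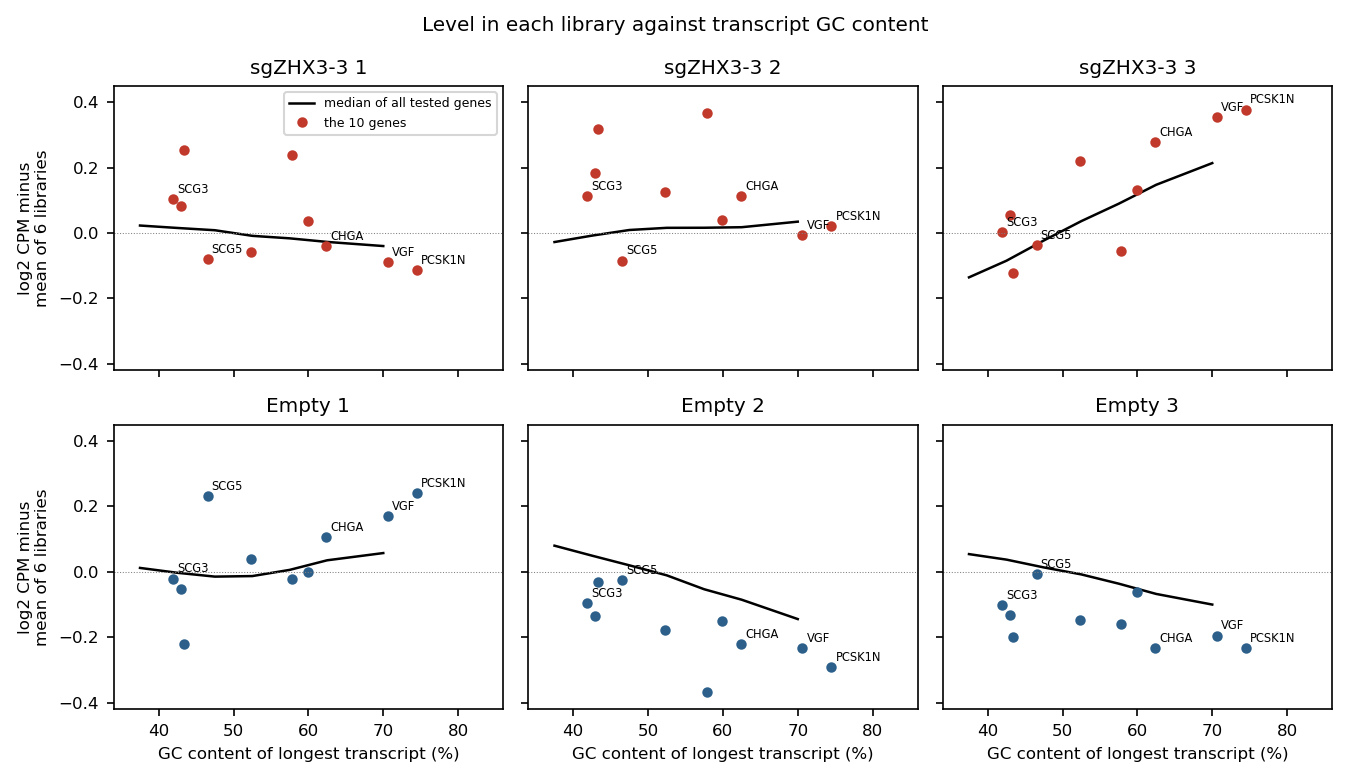
log2 CPM of each of the 10 genes minus its mean over the 6 libraries, against the GC content of its longest transcript, with 1 panel per library; sgZHX3-3 libraries are above and Empty libraries below. The black line is the median of all tested genes in 7 GC ranges, and PCSK1N and VGF lie at its high-GC end, up in sgZHX3-3 3 and Empty 1 and down in Empty 2 and 3.

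Stress genes differed between libraries too. A list of 12 heat shock and oxidative stress genes, put together with earlier results of these data known, summed to 1129, 1190 and 1063 CPM in sgZHX3-3 libraries, against 1441, 2338 and 2616 CPM in Empty libraries. Of the 12, 7 were called lower in sgZHX3-3 and 0 higher, beside 4.98% of all tested genes lower. The 7 became 1 without sgZHX3-3 2 or Empty 2, 2 without sgZHX3-3 1 or sgZHX3-3 3, 4 without Empty 3 and 12 without Empty 1. It was 3 with limma-voom or the GC and length offset, 2 with no filter on low counts and 11 with DESeq2. Empty 2 and 3, the highest for stress genes, held the lowest 2 values of 8 of the 10 genes, SCG2 among them; the exceptions were SCG5 and ADCYAP1. The part of stress in the granin levels was not tested.

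**Figure D5:**
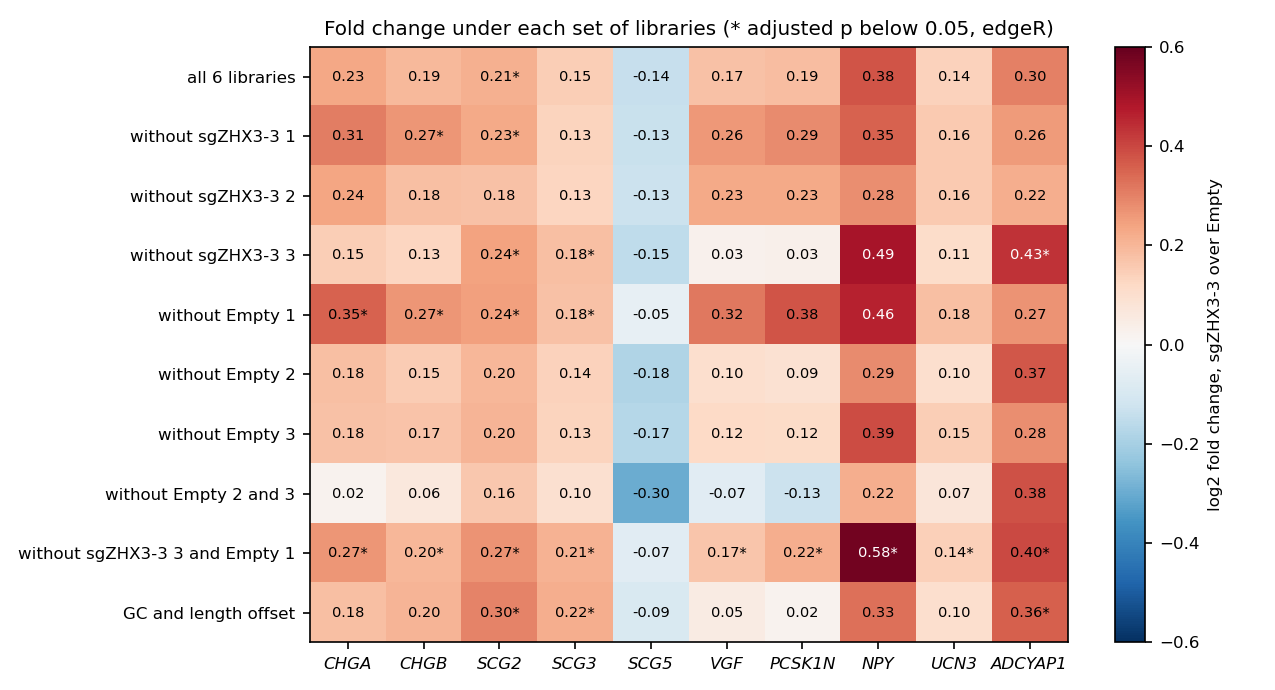
log2 fold change of each gene (sgZHX3-3 over Empty) with all libraries, with each library left out, with pairs of libraries left out, and with the GC and length offset; asterisks mark an edgeR adjusted p below 0.05. SCG5 stays below 0 in each setting shown, while VGF and PCSK1N are below 0 without Empty 2 and 3.

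Other genes of the granule pathway were counted in the same fit, list by list. In that fit 7.11% of all tested genes were called higher and 4.98% lower, with a median log2 fold change of −0.0020. Of 13 genes for prohormone processing enzymes and their partners, SCG5 and PCSK1N included, 4 rose in sgZHX3-3 and 0 fell, with a median log2 fold change of 0.19. PCSK1, the convertase that starts the cutting of proinsulin and granins, was at 1195, 1153 and 1108 CPM in sgZHX3-3 libraries, against 1034, 975 and 928 CPM in Empty libraries (0.23, edgeR adjusted p = 0.0176). PCSK2, the client of SCG5, was at 642, 655 and 741 CPM in sgZHX3-3, against 621, 497 and 506 CPM in Empty libraries (0.33, adjusted p = 0.0267). FURIN (0.38, adjusted p = 0.0244) and the carboxypeptidase CPD (0.22, adjusted p = 0.0286) were the others. The main granule carboxypeptidase CPE, named after its value was seen, was at −0.04 (adjusted p = 0.848). This count of 4 was 0 without sgZHX3-3 2, Empty 2 or Empty 3, and 2 without sgZHX3-3 1 or sgZHX3-3 3. It was 2 with the GC and length offset and 1 with the replicate number as a block. The share of all tested genes called higher was 3.01% without sgZHX3-3 2, 3.42% without Empty 2 and 2.89% without Empty 3. It was 6.14% without sgZHX3-3 1, 5.11% without sgZHX3-3 3, 7.95% with the offset and 3.19% with the block.

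The next lists have the same background of 7.11% of all tested genes called higher and 4.98% lower. Of 29 tested genes of granule membrane and biogenesis, 5 rose and 0 fell, with a median of 0.07. They were PTPRN2, a phosphatase-like granule membrane protein (0.55, edgeR adjusted p = 0.000490), the sorting receptor SORL1 (0.39, 0.00103), the priming factor CADPS (0.31, 0.00835), the zinc transporter SLC30A8 (0.47, 0.0260) and VPS41, needed for granule formation (0.20, 0.0321). With the GC and length offset 5 were called higher and 2 lower, beside 7.95% and 6% of all tested genes. The count of higher genes was 10 without Empty 1, with 1 lower, and 2 to 3 without Empty 2, Empty 3, sgZHX3-3 1 or sgZHX3-3 2. Without Empty 1, 10.9% of all tested genes were called higher and 9.14% lower. In the other fits just named 2.89% to 6.14% were called higher. Of 22 regulators of neuroendocrine genes 4 rose and 1 fell, with a median of 0.04. MYT1 (0.23, adjusted p = 0.0169), the cyclic AMP coactivator CRTC1 (0.26, 0.0231), RCOR2 (0.25, 0.0391) and ISL1 (0.23, 0.0429) rose, and the immediate early factor EGR1 fell by 0.32 on the log2 scale (0.0142). REST, the repressor of neuronal genes that include granins, was named after its value was seen and was at 0.18 (adjusted p = 0.279). With library totals, and with the GC and length offset, 2 were called higher and 2 lower. The 4 became 0 without sgZHX3-3 2, Empty 2 or Empty 3, 1 to 2 without sgZHX3-3 3 or sgZHX3-3 1, and 7 without Empty 1. EGR1 lost its call without sgZHX3-3 2 or Empty 3.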

How the data were processed

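The authors deposited raw counts per gene symbol, whole numbers with 1 column per library and no normalisation, per the file headers and the values. The submitters' processing notes name STAR, featureCounts and the build hg38. The labels' protocols name a NucleoSpin kit and a stranded NEBNext Ultra Directional kit. Versions, annotation and strand setting were not given in the sources used here. Columns named Ctrl and ZHX3KO3 with letters a to c were joined to the titles Empty and sgZHX3-3 by letter.

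From these counts, genes were kept by filterByExpr of edgeR (minimum count 10, minimum total 15), scaled by TMM (factors 0.984 to 1.02) and tested in 1 fit on group alone by the quasi-likelihood test of edgeR with robust settings, with Benjamini-Hochberg adjustment and a threshold of 0.05. Each standard error was derived from the F statistic. The common biological coefficient of variation was 6.91%. Coordinates, exon lengths and transcript GC content come from GENCODE release 29 (GRCh38), and promoter windows from RefSeq. The text names the 10 genes, ZHX3, INS, tested receptors, the 3 genes nearest each of the 10 in pattern, and up to 5 called genes per list with the smallest adjusted p. The genes and lists were chosen with earlier results of these data known. Alternatives were RLE factors, library totals, 2 other filters, DESeq2 and limma-voom, a block for the replicate number, leaving out each library, Empty 2 and 3 left out, and an adjusted p below 0.01. Added after the data were seen were a GC and length offset, the stress gene list, and Empty 1 with sgZHX3-3 3 left out. Scripts were tested on simulated data. Protein sequences were not used here, and 1 gene of the marker lists is not reported here. Software was matplotlib 3.10.9, Python 3.11.15, DESeq2 1.42.0, limma 3.58.1 and edgeR 4.0.16 under R 4.3.3.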

Additional observations from a re-analysis of the deposited data

How the results depend on the processing

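SCG2 was the gene called with RLE factors and with library totals, with DESeq2 and limma-voom, with no filter and with one of 1 CPM in at least 3 libraries, and the number of the 10 genes called lower was 0 in each setting run. The number called higher was 0 at an adjusted p below 0.01, 0 without Empty 2 and 3, 3 with the GC and length offset, and 0 to 4 with single libraries left out. It was 9 without sgZHX3-3 3 and Empty 1, a setting that keeps the pairs of libraries closest to each other and in which 15.9% of all tested genes were called higher. Over all genes the calls were 467 higher and 194 lower at an adjusted p below 0.01, 209 and 40 without Empty 2 and 3, 2584 and 2338 without sgZHX3-3 3 and Empty 1, and 1272 lower with library totals. With single libraries left out they ran from 474 to 1792 higher and from 184 to 1499 lower. With the replicate number as a block 0 of the 10 genes were called, with 516 higher and 239 lower over all genes. The numbers share no stated origin, so the samples are not taken as paired. Deviations of same-numbered libraries correlated at −0.14, 0.07 and −0.14. Those of sgZHX3-3 3 and Empty 1, the libraries that stood apart, correlated at 0.23. These correlations follow which library stood apart, so they cannot show or exclude a shared origin. Without Empty 2 and 3, VGF (−0.068) and PCSK1N (−0.13) had the other sign. Against INS in place of CHGA, the difference in the mean log2 ratio was 0.0043 for CHGB, 0.026 for SCG2 and 0.0029 for PCSK1N, where it was −0.042, −0.021 and −0.044 against CHGA. With single libraries left out the difference in the ratio to CHGA ran from −0.10 to 0.086 for SCG2, −0.18 to 0.027 for SCG3, −0.10 to 0.013 for PCSK1N and −0.080 to 0.28 for ADCYAP1, and from −0.44 to −0.30 for SCG5. The difference in the share of counts held by the 10 genes ran from 0.228 to 0.637 percentage points, and was 0.417 with all libraries. The causes of these shifts were not tested. With 3 libraries per group the spread between libraries, not depth, set the intervals of VGF and PCSK1N.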

Other observations

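Other peptide hormones of the cells were mostly without a call. Of 21 tested genes, IAPP, the amyloid peptide stored with insulin, rose and ADM, the vasodilator adrenomedullin, fell in sgZHX3-3 libraries. The median log2 fold change over the list was 0.10. Over all tested genes 7.11% were called higher and 4.98% lower. IAPP was at 929, 921 and 1037 CPM in sgZHX3-3 libraries, against 769, 566 and 557 CPM in Empty libraries (0.61, edgeR adjusted p = 0.0113). ADM was at 5.68, 6.36 and 7.85 CPM in sgZHX3-3 libraries, against 8.79, 11.8 and 15.3 CPM in Empty libraries, and fell by 0.84 on the log2 scale (edgeR adjusted p = 0.0175). Neither pair of groups overlapped. IAPP lost its call without sgZHX3-3 3 and with the GC and length offset, ADM lost its call without sgZHX3-3 2 or Empty 2, and both lost theirs with no filter on low counts. PENK, PDYN, GRP, TRH and NMS had 0 counts in each library.

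Genes with the most similar levels to SCG2 across the 6 libraries were MANBA (r = 0.997), HEXA (0.992) and EPB41L3 (0.991), and to SCG5 they were PBX3 (0.998), CYB561 (0.992) and CREB3L4 (0.991). For the other 8 genes the nearest, with r between 0.985 and 0.999, paired CHGA with CTBP1-AS2, SPATA20 and CHST1, CHGB with GTF2IRD1P1, WSCD1 and ADAMTS15, SCG3 with NDUFA10, CCNB1 and SLC6A17, VGF with SLC25A39, PNMA1 and HIC1; PCSK1N with HEXDC, RAB37 and KIAA2013, NPY with AFM, LOC200772 and FAM72D, UCN3 with FKBP9, ACTR3C and EXOC3L1 and ADCYAP1 with DAAM1, MYO6 and ULBP1. These are Pearson correlations of log2 CPM given as a description. They are the highest among 16198 genes over 6 libraries that also differ by group and GC content.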
